A study of Mus musculus with 5 samples.

Results

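DRIP-only peaks far from RNA polymerase II (RNAPII) are peaks of R-loop signal that overlap no peak of RNAPII, NELF-A or NELF-B (both NELF proteins belong to the negative elongation factor), and whose nearest RNAPII peak lies more than 100 kb away. They numbered 2802 of the 10031 peaks in the DRIP-seq list, or 27.9% (95% Wilson interval 27.1 to 28.8%). They were chosen by position: overlap was counted from 1 shared base, and distance was the difference between the facing end bases of both peaks. All positions are in mm9. Everything that follows from that choice, such as the absence of an RNAPII peak, is a description and not a result. RNAPII that gave no peak cannot be seen in these lists.

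R-loops are hybrids of RNA with its template DNA that leave the other DNA strand unpaired. They form behind transcribing polymerase, often at gene starts and ends and over sequence rich in G on the displaced strand. In DRIP-seq an antibody against RNA-DNA hybrids pulls the hybrids out of digested genomic DNA. The enzyme RNase H, which degrades the RNA in a hybrid, is the usual control for whether a peak is one. NELF keeps RNAPII paused just downstream of gene starts. A DRIP peak away from RNAPII and NELF peaks thus lies apart from the sites where these lists would show paused RNAPII.

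All samples were epithelial cells freshly isolated from the mammary glands of virgin mice of mixed strain, 6 to 8 weeks old. The 4 samples in use were DRIP (R-loop antibody, libraries of 15 PCR cycles), RNAPII (15 cycles), NELF-A and NELF-B (18 cycles and in-house antibodies each). The remaining sample, DRIP after RNase H treatment, is not analysed here, and loss of a peak after RNase H was not tested. The groups share genotype and treatment as far as the labels state, which name no further allele or agent, and the lists carry no gene names, so the cell type could not be checked against markers. The RNAPII list held 7718 peaks, NELF-A 10782 and NELF-B 3925. There was 1 list per target and no replicate list, also where a title names 2 libraries. No p-values were therefore computed. Intervals cover counting error alone, and peaks that lie near each other are not independent. The sequencing depth is unknown from these files.

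The DRIP peaks far from RNAPII became sparser with distance. The span covered by the lists measured 2570 Mb, and 1876 Mb of it (73.0%) lay more than 100 kb from an RNAPII peak. This territory held 1.49 of these peaks per Mb (exact Poisson interval 1.44 to 1.55). DRIP-only peaks at 10 to 100 kb had a density of 4.67 per Mb (4.50 to 4.85) of genome at that distance, and those within 10 kb 17.8 per Mb (17.0 to 18.6). The territory includes unassembled and repeated sequence that can hold no mapped read, because no genome of this build was used here.

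The decline went on beyond the 100 kb limit. Density was 2.83 per Mb (2.65 to 3.02) at 100 to 200 kb, 1.66 (1.56 to 1.78) at 200 to 500 kb, 1.02 (0.922 to 1.12) at 500 to 1000 kb and 0.706 (0.621 to 0.799) at 1000 to 2000 kb. Past 2000 kb it was higher again, at 1.26 per Mb (1.12 to 1.42, 293 peaks). That upturn rested on a few places: without the 3 largest runs of peaks, described further on, the density past 2000 kb was 0.716 per Mb (166 peaks), close to that of the class before it. The median distance to RNAPII was 315 kb, with quartiles of 165 and 730 kb. Within 200 kb of RNAPII lay 931 of the peaks (33.2%), and 542 (19.3%) lay more than 1 Mb away.

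**Figure D1:**
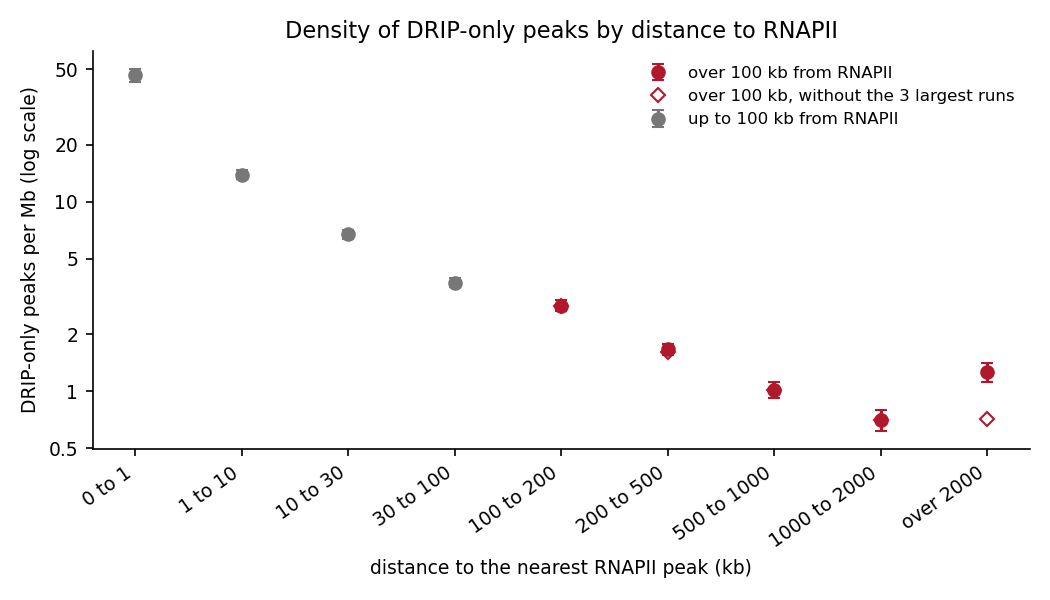
DRIP-only peaks per Mb of genome at each distance from the nearest RNAPII peak (x axis, kb; y axis, log scale). Filled points are densities with exact Poisson 95% intervals, and open diamonds leave out the 3 largest runs. Density goes down to 0.706 per Mb at 1000 to 2000 kb and stands at 1.26 past 2000 kb, or at 0.716 without those runs.

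Most of these peaks were narrow and scored close to the lowest value in the list. The median width was 500 bp (quartiles 500 and 750 bp), and 1634 of 2802 peaks (58.3%, 56.5 to 60.1%) were 500 bp wide or less. Only 47 (1.68%, 1.26 to 2.22%) reached 3000 bp. The score, the authors' own whole number per peak, had a median of 44 and quartiles of 40 and 66. The lowest score in the DRIP list, 38, was given to 361 of the peaks (12.9%), and 387 (13.8%) scored 100 or more. In the whole DRIP list 11.9% (11.3 to 12.6%) had the lowest score, a similar share, and 24.3% scored 100 or more. Its median score was 58, its median width 750 bp, and 47.6% of its peaks were 500 bp wide or less. The score has no stated unit and is compared here within the DRIP list only.

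In the shares of narrow and of high-scoring peaks they differed little from the DRIP-only peaks at 10 to 100 kb and more from those nearer to RNAPII. The share of peaks 500 bp wide or less differed by -0.79 percentage points from the 59.1% at 10 to 100 kb (Newcombe interval -3.40 to 1.83), an interval that includes no difference. It was 11.0 points above the 47.3% within 10 kb (8.16 to 13.8) and 34.9 points above the 23.5% of DRIP peaks on RNAPII (32.3 to 37.3). Scores of 100 or more were 0.63 points more frequent than the 13.2% at 10 to 100 kb (-1.19 to 2.44). They were 7.09 points less frequent than the 20.9% within 10 kb (interval of the difference -9.29 to -4.92), and 51.4% of DRIP peaks on RNAPII reached that score. The share at the lowest score, 12.9%, was 2.60 points below the 15.5% at 10 to 100 kb (interval of the difference -4.46 to -0.75) and differed by -0.24 points from the 13.1% within 10 kb (-2.19 to 1.67). Peaks of 3000 bp or more made up 1.68%, against 2.53% at 10 to 100 kb (difference -0.85 points, -1.64 to -0.09). The rule itself favours narrow peaks, since a wide peak meets another list more often.

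**Figure D2:**
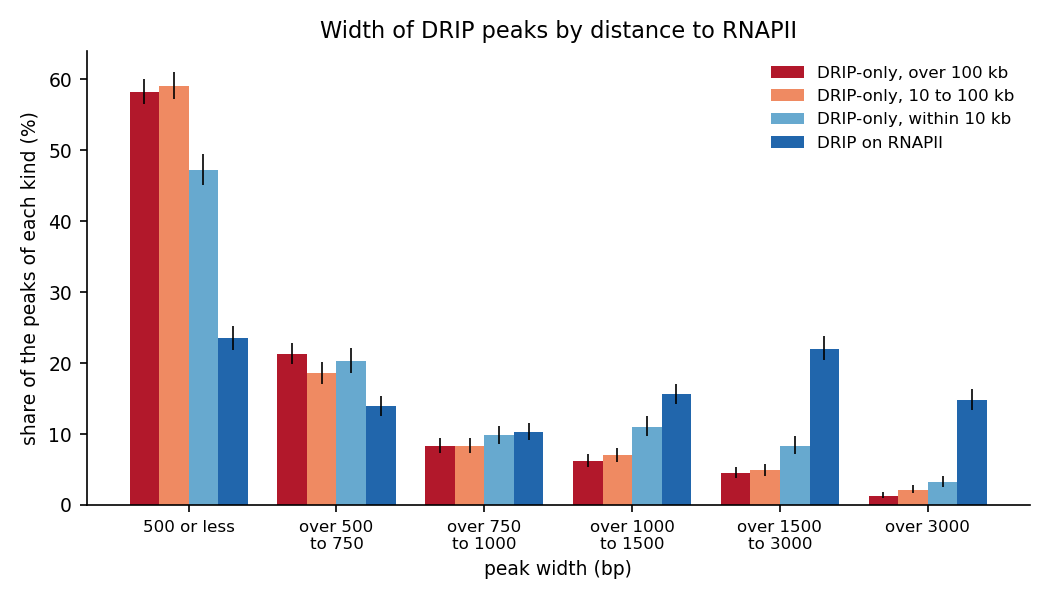
Share of DRIP peaks in each class of width (x axis, bp; y axis, % of the peaks of each kind) for DRIP-only peaks over 100 kb, 10 to 100 kb and within 10 kb of RNAPII and for DRIP peaks on RNAPII. Error bars are 95% Wilson intervals. Peaks of 500 bp or less make up 58.3% of those over 100 kb away and 23.5% of those on RNAPII.

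At equal width the scores of the narrow peaks did not separate the kinds of DRIP peak. Among peaks of exactly 500 bp the median score was 40 for the 1633 peaks far from RNAPII, and also 40 for the 1564 at 10 to 100 kb, the 955 within 10 kb and the 543 on RNAPII. At 1000 bp the medians were 85 (interval of the median 83 to 88) far from RNAPII, 80 (80 to 81) at 10 to 100 kb, 81 (80 to 82) within 10 kb and 84 (82 to 85) on RNAPII. At 1500 bp they were 138 (130 to 154, 65 peaks) far from RNAPII, 124 (122 to 128) at 10 to 100 kb, 126 (124 to 129) within 10 kb and 129 (125 to 133) on RNAPII. At these 2 widths, the peaks far from RNAPII thus had a slightly higher median than the other DRIP-only peaks. Across the 2802 peaks, Spearman's rho of score with width was 0.888, both taken from the same peak call.

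A small set stood out by score per width. Divided by width, the median score was 20.5 per 250 bp, near the lowest value in the list, 18.8. The whole DRIP list also had a median of 20.5, both nearer kinds of DRIP-only peak had 20, and DRIP peaks on RNAPII had 21.5. In 51 of the 2802 peaks (1.82%, 1.39 to 2.39%) the score per 250 bp was 40 or more, a limit chosen after the values were seen. At 10 to 100 kb the share was 0.982% (26 of 2648, difference 0.84 points, 0.21 to 1.48), within 10 kb 0.198% (4 of 2019), and on RNAPII 5.92%. Among DRIP peaks on NELF without RNAPII it was 7.29%. The whole DRIP list had 2.35% (236 of 10031, 2.07 to 2.67%), so the share far from RNAPII was not above that of the list. These 51 peaks lay on 19 chromosomes, and 6 of them were on the X chromosome. Their median width was 1500 bp, against 500 bp for the other 2751 peaks, and 35 of them (68.6%) were 1000 to 2000 bp wide. No other DRIP peak lay within 100 kb of 30 of them (58.8%, 45.2 to 71.2%), against 45.0% (43.2 to 46.9%) of the others.

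**Figure D3:**
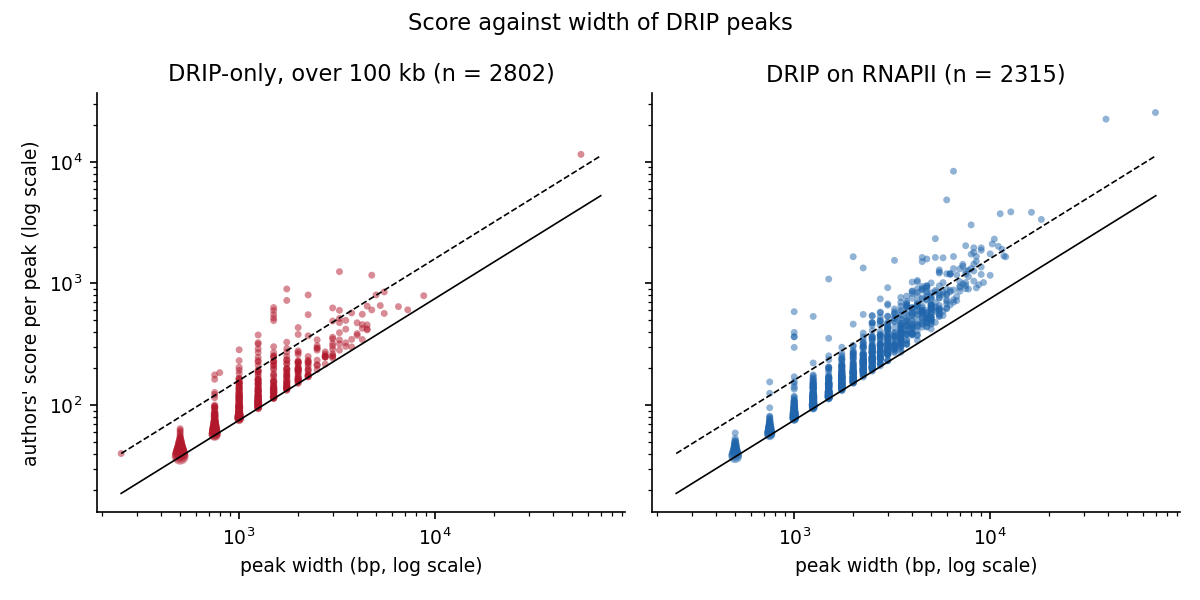
Score against width (both log scales) for the 2802 DRIP-only peaks over 100 kb from RNAPII (left) and the 2315 DRIP peaks on RNAPII (right). Each point is 1 pair of width and score, larger where more peaks share it. The solid line marks 18.8 per 250 bp, the lowest value in the DRIP list, and the dashed line 40 per 250 bp. Most peaks far from RNAPII lie on or just above the solid line, and 51 lie on or above the dashed one. The median is 20.5 per 250 bp on the left, 21.5 on the right and 20.5 in the whole DRIP list.

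The 5 peaks with the highest score per 250 bp were 1500 to 3250 bp wide, above the median of 500 bp. The first covered 1750 bp on chromosome 4 from 80605251 to 80607000 and scored 901 (129 per 250 bp), 481 kb from the nearest RNAPII and NELF-A peaks and 351 kb from the nearest DRIP peak. The second covered 1500 bp on chromosome 8 from 28388251 to 28389750 and scored 634, or 106 per 250 bp. It lay 103 kb from RNAPII, only just beyond the limit, and 15.8 kb from a NELF-A peak. The third, on chromosome 11 from 14424751 to 14426500, scored 725 (104 per 250 bp) and had no peak of another target within 1981 kb and no DRIP peak within 972 kb. The fourth was on chromosome 12 from 37248251 to 37249750, with 599 (99.8 per 250 bp) and a NELF-B peak 71.8 kb away. The fifth, on chromosome 2 from 22442751 to 22446000, scored 1250 (96.2 per 250 bp), which was also the second highest score of all peaks far from RNAPII.

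One peak exceeded the others by far. It covered 55500 bp of the X chromosome from 166577501 to 166633000 and scored 11510, rank 3 in the whole DRIP list by score and rank 2 by width. Its score was 9.21 times the second highest and its width 6.34 times that of the second widest, and it alone held 5.38% of the summed score of the 2802 peaks. The nearest RNAPII peak lay 141 kb away and the nearest NELF-A and NELF-B peaks 135 kb. With 3 more peaks, from 166634001 to 166636250 with 371, from 166636501 to 166638000 with 134 and from 166649501 to 166650296 with 185, it filled the far end of the X chromosome as listed. The distal end of the mouse X chromosome is the pseudoautosomal region, which pairs with the Y chromosome at meiosis and is rich in repeats. Whether reads of repeated sequence contributed to these peaks was not tested.

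The other high scores were modest. After the X chromosome and the peak on chromosome 2 came one of 4750 bp that scored 1169, on chromosome 15 from 91736501 to 91741250 and 1226 kb from RNAPII. The next scores were the 901 of the peak on chromosome 4 and 852, for 5500 bp on chromosome 17 from 6472001 to 6477500. In all, 3 of the peaks were among the 101 DRIP peaks of the top 1% by score (2.97%, 1.02 to 8.37%), while they made up 27.9% of the list. The other wide peaks were one of 8750 bp on chromosome 5 from 125485251 to 125494000 (score 793), one of 7250 bp on chromosome 4 from 140094501 to 140101750 (607), one of 6500 bp on chromosome 16 from 3231501 to 3238000 (645) and one of 5500 bp on chromosome 1 from 85256251 to 85261750 (567). The peak on chromosome 16 lay 506 kb from RNAPII and 3.25 kb from a NELF-B peak.

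Median score and width were nearly level up to 2000 kb from RNAPII and higher past it. Spearman's rho with distance across the 2802 peaks, which share 1 list, was 0.110 for score and 0.0891 for width. The median score was 43 at 100 to 200 kb, 44 at 200 to 500 kb, 43 at 500 to 1000 kb, 46 at 1000 to 2000 kb and 61 (58 to 67) past 2000 kb. The median width was 500 bp in each class up to 2000 kb and 750 bp past it, where 40.3% of peaks (34.8 to 46.0%) were 500 bp wide or less, while the classes up to 2000 kb had 56.6 to 63.3%. Past 2000 kb the median score was 51.5 and the median width 500 bp without the 3 largest runs, and the share of peaks scoring 100 or more was 16.9% (11.9 to 23.3%) in place of 27.3%.

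The 3 peaks farthest from RNAPII were all on the X chromosome. One of 500 bp from 118709751 to 118710250, with a score of 43, lay 12410 kb away. One of 1500 bp from 115960251 to 115961750 scored 495 at 11659 kb, and one of 1250 bp from 110948501 to 110949750 scored 115 at 6647 kb. At the other end, 4 peaks lay just inside the limit, at 100001 bases. With chromosome names sorted as text, the first 3 scored 103 on chromosome 1 from 87388001 to 87389250, 64 on chromosome 14 from 55735001 to 55735750 and 39 on chromosome 5 from 36336501 to 36337000. Of the 6 peaks just outside, at 99751 bases, the first 3 by the same sorting scored 68 on chromosome 11 from 115670001 to 115670750, 62 on chromosome 3 from 85478251 to 85479000 and 40 on chromosome 4 from 120142001 to 120142500. In the same order, the 3 peaks inside the limit were 1250, 750 and 500 bp wide and the 3 outside it 750, 750 and 500 bp wide.

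Spacing varied widely among the peaks far from RNAPII. The distance to the next such peak had a median of 91.1 kb, a lower quartile of 7.31 kb and an upper quartile of 473 kb. Another of them lay within 10 kb of 745 (26.6%, 25.0 to 28.3%), while 339 (12.1%, 10.9 to 13.4%) had none within 1 Mb. A peak of the same kind lay within 10 kb of 46.8% of DRIP-only peaks at 10 to 100 kb, 58.9% of those within 10 kb and 65.3% of DRIP peaks on RNAPII. Counting DRIP peaks of any kind, 27.0% had a neighbour within 10 kb, against 49.5% at 10 to 100 kb, 77.3% within 10 kb and 80.4% on RNAPII. In the whole DRIP list the share was 56.2%. The difference from the peaks at 10 to 100 kb was -22.5 points (-25.0 to -20.0). The differences from the kinds nearer to RNAPII are partly set by the rule, since a peak over 100 kb from RNAPII has no DRIP peak on RNAPII close to it. That holds less for the peaks at 10 to 100 kb, which also lie more than 10 kb from RNAPII. DRIP-only peaks were sparser over 100 kb from RNAPII, at 1.49 per Mb against 4.67 at 10 to 100 kb, and these shares were not adjusted for density. They therefore do not tell whether the peaks far from RNAPII cluster less. No other DRIP peak lay within 100 kb of 1268 of the peaks far from RNAPII (45.3%), against 13.0% of those at 10 to 100 kb and 20% of the whole DRIP list. Of the peaks far from RNAPII, 92 touched another of them without a gap, in 43 groups. Whether the peak call had divided single stretches there was not tested.

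Chaining peaks no more than 100 kb apart left 1372 single peaks (49.0%) and gathered 1430 in 451 runs. Of these runs 46 held 5 peaks or more, 469 peaks in all, and 11 held 10 or more. With a limit of 10 kb, 745 peaks formed 259 runs and 2057 stayed single. At the 100 kb limit, peaks in runs of 5 or more scored 59 at the median (57 to 61) and were 750 bp wide, while single peaks scored 43 (43 to 44) and were 500 bp wide. Those 469 peaks include the 160 of the 3 largest runs, which scored 83 at the median and were 1000 bp wide. Runs of 5 or more were not summarised without these 3 runs, so the contrast may rest on them. Peaks in runs of 2 to 4 scored 44 (43 to 45) at a median of 500 bp, close to the single ones.

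The largest run held 80 peaks on chromosome 8 from 19683501 to 20038250. Its peaks covered 104 of 354.75 kb (29.3%). They were 1000 bp wide and scored 83 at the median, with a highest score of 601. The nearest RNAPII peak was 3549 kb away, while 3 NELF-A peaks, 2 NELF-B peaks and 3 further DRIP peaks lay inside the run. At the 10 kb limit this stretch contained the largest and second largest runs of the genome, 39 peaks from 19858751 to 19989750 and 17 peaks from 19698751 to 19743250. In the first of these, DRIP-only peaks covered 42.0% of 131.0 kb.

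The second largest run held 47 peaks on chromosome 5 from 14808001 to 15200500. They covered 12.8% of 392.5 kb with a median score of 76, and no peak of RNAPII, NELF-A or NELF-B lay inside; the nearest RNAPII peak was 5187 kb away. The third held 33 peaks on chromosome 1 from 84989251 to 85321750, which covered 15.3% of 332.5 kb. Its median score was 96 and its highest 805, and 2 NELF-A peaks lay inside. Together these 3 runs made up 5.71% of the 2802 peaks and 9.29% of the bases they covered. Their 160 peaks scored 83 at the median (68 to 98) and were 1000 bp wide, and 67 of them (41.9%) scored 100 or more. Among the other 2642 peaks the median score was 44, the median width 500 bp, and 12.1% scored 100 or more.

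**Figure D4:**
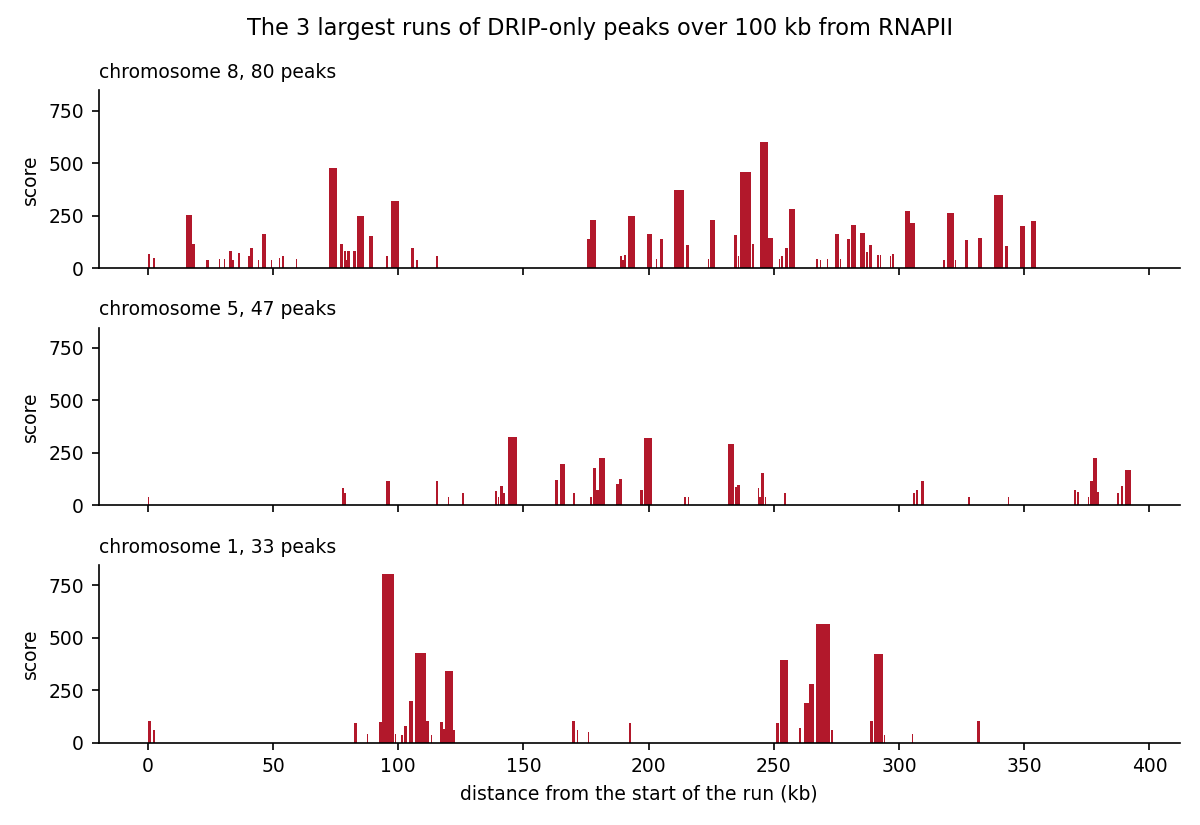
The 3 largest runs of DRIP-only peaks over 100 kb from RNAPII, chained at 100 kb, on chromosomes 8, 5 and 1. Each bar is 1 peak, as wide as the peak (x axis, kb from the start of the run) and as high as its score. Scores reach 601 on chromosome 8 and 805 on chromosome 1, and each run has stretches without peaks.

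At the 10 kb limit, the next largest run lay on chromosome 5 from 125485251 to 125552500, with 16 peaks over 43.1% of 67.25 kb and the peak of 8750 bp at its start. The nearest RNAPII peak was 142 kb away and no NELF peak lay inside. What these stretches of dense peaks hold in genes or repeats was not analysed here, since the lists name no genes and no annotation of this build was used.

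Seen from the gaps between RNAPII peaks, 2125 stretches of the genome lay more than 100 kb from RNAPII, and 984 of them (46.3%, 44.2 to 48.4%) held a DRIP-only peak. The stretches with a peak had a median length of 0.753 Mb and those without 0.150 Mb. Of the 516 stretches of 1 Mb or longer, 121 (23.4%) held none. The longest without a peak measured 7.69 Mb, on chromosome 14 from 38049251 to 45739000. The fullest were on chromosome 8 with 83 peaks in 8.50 Mb, on chromosome 5 with 77 in 11.0 Mb and on chromosome 1 with 35 in 2.45 Mb, of which the 3 runs above made up 96.4%, 61.0% and 94.3%.

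All 20 chromosomes in the lists had such peaks, at densities that spanned 7.74-fold. For DRIP-only peaks at 10 to 100 kb the span was 6.16-fold, with chromosome 11 highest at 10.2 per Mb, and within 10 kb it was 2.69-fold. Among the peaks far from RNAPII, chromosome 11 was again highest, with 285 peaks or 4.18 per Mb (3.71 to 4.70) of its territory more than 100 kb from RNAPII. Chromosome 5 followed with 289 peaks and 2.79 per Mb (2.48 to 3.13), and chromosome 9 with 184 and 2.27 (1.95 to 2.62). The lowest were the X chromosome with 79 peaks and 0.540 per Mb (0.428 to 0.673), chromosome 13 with 53 and 0.600 (0.450 to 0.785) and chromosome 14 with 71 and 0.743 (0.580 to 0.937). The X chromosome held 7.80% of the territory and 2.82% (2.27 to 3.50%) of the peaks. Yet these were a larger part of its DRIP peaks than elsewhere in the list: 79 of 170 (46.5%, 39.1 to 54.0%), beside 27.9% in the whole list, on a chromosome with 0.887 RNAPII peaks per Mb.

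The order of the chromosomes resembled that of the other DRIP-only peaks. Across the 20 chromosomes, Spearman's rho of the density was 0.746 with that of DRIP-only peaks at 10 to 100 kb, 0.654 with those within 10 kb and 0.624 with RNAPII peaks per Mb. All of these come from the same cells. Each DRIP-only density was divided by the length of genome at its own distance, and RNAPII by the span of the chromosome. The RNAPII peaks also set the lengths at each distance. Single runs weighed on some chromosomes. Without its largest run, chromosome 8 had 0.765 per Mb in place of 1.59, and chromosome 5 had 2.33 in place of 2.79, still the second highest. Chromosome 11 had 3.86 per Mb without its largest run of 22 peaks, from 117082751 to 117398250. Width and score varied less: the median width was 500 bp on 18 of 20 chromosomes, and the median score ranged from 41 to 62, the highest on chromosome 8.

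**Figure D5:**
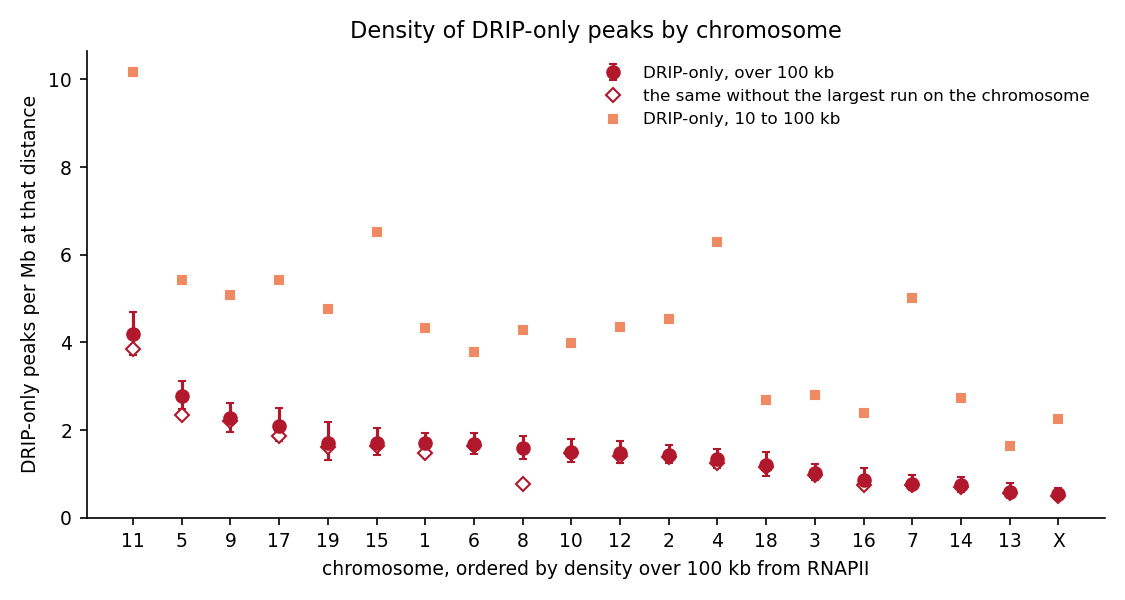
DRIP-only peaks over 100 kb from RNAPII per Mb of genome at that distance (filled circles, exact Poisson 95% intervals) by chromosome, from highest to lowest. Open diamonds leave out the largest run on each chromosome, and squares are DRIP-only peaks 10 to 100 kb from RNAPII per Mb at that distance. Chromosome 11 stands at 4.18 per Mb and the X chromosome at 0.540.

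Along the chromosomes the peaks were densest at the far end. With each chromosome cut into 10 equal steps from its lowest to its highest listed base, density was 1.70 per Mb (1.53 to 1.89) in the first step, which in the mouse lies next to the centromere. That first step includes the run of 47 peaks on chromosome 5, and its density was not computed without them. Density was between 1.06 and 1.28 per Mb in steps 3 to 7 and reached 2.56 per Mb (2.33 to 2.82) in the last. Chromosome 11 contributed to the last step: its own final step held 92 peaks at 17.2 per Mb, and without this chromosome the last step of all had 2.08 per Mb, still the highest. That end of chromosome 11, from 109725176 to 121583500, was dense in every list, with 26.9 DRIP peaks per Mb against 8.23 on the rest of the chromosome, 8.10 RNAPII peaks against 5.94 and 11.2 NELF-A peaks against 7.86. Its 92 DRIP-only peaks over 100 kb from RNAPII scored 57 at the median and at most 154, and the 193 such peaks elsewhere on the chromosome scored 43 at the median.

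NELF was seldom close. A NELF-A peak lay within 10 kb of 155 of the 2802 peaks (5.53%, 4.74 to 6.44%) and a NELF-B peak within 10 kb of 64 (2.28%, 1.79 to 2.91%), with median distances of 184 kb and 355 kb. Within 1 kb the counts were 44 (1.57%) and 12 (0.428%). In the whole DRIP list, 45.2% of peaks had NELF-A and 26.5% had NELF-B within 10 kb, and 25% and 13.9% within 1 kb. For DRIP-only peaks at 10 to 100 kb from RNAPII, 14.9% had NELF-A and 3.25% had NELF-B within 10 kb. NELF often lies on RNAPII, so these distances are tied to the rule. The NELF-A list had 1647 peaks of its own more than 100 kb from RNAPII, and 128 of them (7.77%, 6.57 to 9.17%) lay within 10 kb of one of the 2802 DRIP-only peaks. For NELF-B it was 33 of 307 (10.7%, 7.76 to 14.7%). DRIP peaks that overlap NELF are left out by the rule, so these shares are partly set by it. Of such peaks 247 overlapped no RNAPII peak, at any distance from RNAPII. How many of them lay more than 100 kb away was not counted.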

How the data were processed

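Peak lists of 4 samples were used, and analysis started from the deposited files. Reads were aligned with BWA to mm9, per the submitters' processing notes. No source used here gives the peak caller, its threshold or a control. Each deposited line gives chromosome, first base, last base, the authors' score and 2 constant columns. Coordinates were read as 1-based, and DRIP peaks lie on a grid of 250 bp, except 1 at the end of the X chromosome.

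Overlaps, distances, runs and territories were computed in Python 3.11.15 with numpy 2.4.6, pandas 2.3.3 and scipy 1.17.1, and figures were drawn with matplotlib 3.10.9. The interval functions were tested on simulated peaks. Territory was counted per chromosome between the lowest and the highest base listed for any of the 4 targets. Shares carry 95% Wilson intervals, densities exact Poisson intervals, medians order-statistic intervals and differences of shares Newcombe intervals. With 1 list per target no test over samples exists. Named regions are the 5 highest by score, by width and by score per 250 bp, the 3 farthest from RNAPII, the 3 largest runs at 10 and at 100 kb, the 3 fullest RNAPII-free stretches, and 3 on each side of the limit. Chromosomes named are the 3 highest and 3 lowest in density and X. Members, rules and classes were chosen with earlier results of these data known. The far end of chromosome 11, the X chromosome's end and the limit of 40 were singled out after their values were seen. No sequence is shown, since no mm9 genome was used here.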

Additional observations from a re-analysis of the deposited data

How the results depend on the processing

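No paired analysis was possible because each target had 1 list, and no replicate was left out for the same reason. Measuring distance between centres, or requiring 50% of the shorter peak for overlap with NELF, gave 2819 and 2806 peaks and moved none of the other 9 values beyond their counting intervals. The number of peaks itself was counted as moved past a ratio of 1.5. The other settings moved some values. The fixed values were 2802 peaks, 27.93% of the DRIP list, 1.493 per Mb, 26.59% with another within 10 kb and 5.532% with NELF-A within 10 kb.

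A limit of 50 kb gave 36.43% of the list, 1.716 per Mb, 28.74% with another within 10 kb and 6.678% with NELF-A. A limit of 200 kb gave 18.65%, 1.209 per Mb, 24.21%, 4.115% and 3.688% of the peaks on the X chromosome. Counting NELF within 1000 bp as shared gave 4.032% with NELF-A. Joining touching peaks gave 28.85% of the list and 24.69% with another within 10 kb. Without the X chromosome the density was 1.574 per Mb. Leaving out the 3 largest runs, a setting added after the data were seen, gave 26.34% of the list, 1.408 per Mb, 60.3% of 500 bp or less and 22.41% with another within 10 kb.

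The upper 50% of the DRIP list by score left 1099 peaks, 21.89% of it, with 0.5857 per Mb, a median width of 1000 bp, 0.364% of 500 bp or less, a median score of 79 and 21.33 per 250 bp. The upper 50% of every list gave 1602 peaks, 31.91%, with 0.7559 per Mb, 1000 bp, 0.437%, a median score of 80, 21 per 250 bp, 33.21% with another within 10 kb and 9.051% with NELF-A. By construction these 2 settings remove the low and narrow peaks that form most of the set. The second also shortens the RNAPII and NELF lists, which lets in DRIP peaks that the full lists exclude. Its 1602 peaks are therefore not a subset of the 2802. Depth is unknown.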
